A study of Homo sapiens with 52 samples.

Results

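The genes described here are 9 that answer to zinc: the metallothionein genes MT2A, MT1X, MT1E, MT1F, MT1G, MT1M and MT1A, the zinc exporter gene SLC30A1 and the gene of the zinc-sensing transcription factor MTF1. They were chosen by symbol, out of the 59408 genes listed in each of 25 deposited tables, and were followed through all of them. Genes were tested where their level averaged 10 normalized counts or more across the 26 groups, as it did for 14898 genes. MT2A, MT1E, MT1X, SLC30A1 and MTF1 were among them, and MT1F, MT1G, MT1M and MT1A, which did not pass, are described by their reads.

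Metallothioneins are small, cysteine-rich proteins that bind zinc and copper and hold zinc in an exchangeable store. When free zinc rises, MTF1 binds it, enters the nucleus and activates genes whose promoters hold metal response elements, among them the metallothionein genes and SLC30A1, which moves zinc out of the cell across the plasma membrane. Metallothionein genes are also known to answer to glucocorticoids, to oxidants and to other stresses, and they are abundant in cultured fibroblasts.

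The data are mRNA sequencing of WI-38, a strain of normal human embryonic lung fibroblasts that stops dividing after serial passage. For 24 h the cells received either SDS at 0.009%, which wounds the plasma membrane (PMD-Sen), KCl at 75 mM, which lets Ca2+ in (Ca2+-Sen), or the DNA-damaging drug doxorubicin (DXR) at 250 nM (DDR-Sen). They were collected when treatment ended (day 0) and then 1 to 4 days, 6 days, 8 days and 16 days later. Cells passaged until they stopped dividing gave the replicative senescence group (RS), and young untreated cells were the only control. All groups came from 1 cell strain in the same serum-containing medium, which was renewed every 4 days after treatment per the labels, while the study's methods give a shorter interval. The untreated group carries no day, so that time in culture and treatment cannot be told apart in any comparison with it. The study's methods call the 2 mRNA-seq samples of a group independent, without saying whether they were separate cultures, which the labels do not say either, so that p-values measure only the spread between these libraries.

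In all there were 52 libraries in 26 groups of 2. The tables hold means over libraries, but the whole reads of each library could be recovered from them, for 97.9% of the tested genes. The recovered reads summed to 11.6 M and 9.53 M (megareads) in the untreated libraries and to between 12.5 M and 35.3 M in the treated ones, leaving aside DXR day 1, where fewer genes could be solved. In the same groups the solved genes covered 61.4% (KCl day 8) to 64.2% (KCl day 0) of the total counts. The libraries were therefore deeper than these sums. Among the untreated, treated and RS groups the summed level of 8 fibroblast markers lay between 241523 and 624190 normalized counts, against at most 22.6 for 6 epithelial, 180 for 5 endothelial and 205 for 6 leukocyte markers. In bulk RNA, fewer cells of a kind and less RNA per cell cannot be told apart. The 2 libraries of a group are written below as the first and the second, an order that carries no meaning, and the values of a library are normalized counts on 1 scale for all 26 groups.

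The 7 metallothionein genes lie in 1 cluster on the long arm of chromosome 16. In GENCODE 29 on GRCh38, the build that the submitters' processing notes name, MT2A is at chr16:56608199-56609497, MT1E at chr16:56625475-56627112 and MT1M at chr16:56632233-56633986, all on the plus strand. MT1A (chr16:56638666-56640087), MT1F (chr16:56657694-56660698) and MT1X (chr16:56682424-56684196) follow on the plus strand, and MT1G (chr16:56666731-56668065) lies on the minus strand. SLC30A1 (chr1:211571568-211578742) and MTF1 (chr1:37809567-37859620) are on the minus strand of chromosome 1.

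Promoter sequences are shown because the metal response element is the sequence through which MTF1 acts. RefSeq windows on GRCh38.p14, from 250 bases before to 50 after the annotated start, were at hand for MT2A, MT1X, SLC30A1 and MTF1, 4 of the 9 genes. The core of the element was searched as TGCACNC and TGCGCNC on both strands, and every match is in capitals, written 5′ to 3′ along the gene's own strand.

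MT2A, chr16:56608334-56608633, plus strand: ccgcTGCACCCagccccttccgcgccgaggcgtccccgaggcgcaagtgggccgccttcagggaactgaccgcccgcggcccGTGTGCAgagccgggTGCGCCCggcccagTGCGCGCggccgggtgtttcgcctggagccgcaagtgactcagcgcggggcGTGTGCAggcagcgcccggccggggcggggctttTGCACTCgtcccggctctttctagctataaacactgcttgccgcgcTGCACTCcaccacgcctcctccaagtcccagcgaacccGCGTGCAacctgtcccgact

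MT1X, chr16:56682220-56682519, plus strand: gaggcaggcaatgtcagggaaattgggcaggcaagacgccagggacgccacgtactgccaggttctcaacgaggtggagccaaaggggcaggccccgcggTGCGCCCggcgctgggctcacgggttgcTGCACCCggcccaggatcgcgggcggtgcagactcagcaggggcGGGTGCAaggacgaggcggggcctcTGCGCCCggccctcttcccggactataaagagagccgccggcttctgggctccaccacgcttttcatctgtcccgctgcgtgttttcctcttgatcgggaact

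SLC30A1, chr1:211579112-211579411, minus strand: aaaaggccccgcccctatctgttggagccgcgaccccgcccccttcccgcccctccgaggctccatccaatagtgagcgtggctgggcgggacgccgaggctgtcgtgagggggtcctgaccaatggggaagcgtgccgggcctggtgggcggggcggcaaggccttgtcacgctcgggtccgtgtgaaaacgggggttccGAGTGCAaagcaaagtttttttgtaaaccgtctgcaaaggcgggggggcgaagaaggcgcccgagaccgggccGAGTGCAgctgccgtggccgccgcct

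The MT2A window held 8 matches, the MT1X window 4 and the SLC30A1 window 2, and none overlapped another. Of 35116 RefSeq windows of this length, 29.6% held at least 1 match, 8.6% at least 2, 0.601% at least 4 and 0.0199% at least 8. The MTF1 window held 0 matches. A match is a run of letters, and no binding was measured.

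At the end of SDS treatment all 5 tested genes were higher than in untreated cells, from 1.33-fold for MTF1 to 7.27-fold for MT1X. This was 5 of 5, where 39.9% of all tested genes were called in that comparison (adjusted p under 0.05, the deposited Wald test with Benjamini-Hochberg adjustment here). Called higher there were 19.8% of all tested genes. At the end of KCl treatment MT2A, MT1E and SLC30A1 were lower. These 3 of 5 stood beside 50.1% of all tested genes called in either direction, a share close to the background, and 26.5% called lower. 1 day later MT2A, MT1E and MT1X were higher, 3 of 5 beside 12.5% of all called in either direction and 5.34% called higher. At the end of DXR treatment SLC30A1 alone was called, 1 of 5 beside 27.9%. Over all 25 comparisons the 5 genes gave 13 calls higher and 21 lower out of 125. Among all tested genes the share called in a comparison ran from 4.33% on KCl day 2 to 50.1% on KCl day 0.

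In the other groups 0 to 2 of the 5 genes were called. After SDS 1 gene was called on day 1 (19.7% of all tested genes), 1 at day 2 (15.8%), 2 at day 4 (15.7%), 1 at day 8 (11.8%) and 1 at day 16 (21.2%). After KCl 2 genes each were called at day 4 (12%), day 8 (33.3%) and day 16 (11.9%). After DXR 1 gene each was called at day 1 (19.5%), day 6 (24.5%) and day 16 (29.8%), and 2 genes each at day 3 (11.6%), day 4 (18.4%) and day 8 (22%). None was called on SDS days 3 (11.5%) and 6 (12.8%), on KCl days 2 (4.33%), 3 (10.5%) and 6 (10.2%) or on DXR day 2 (12.7%), where 1 gene had an unadjusted p under 0.05 on DXR day 2, 0 had one on the other 5 days, and limma called 0 on all 6.

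**Figure D1:**
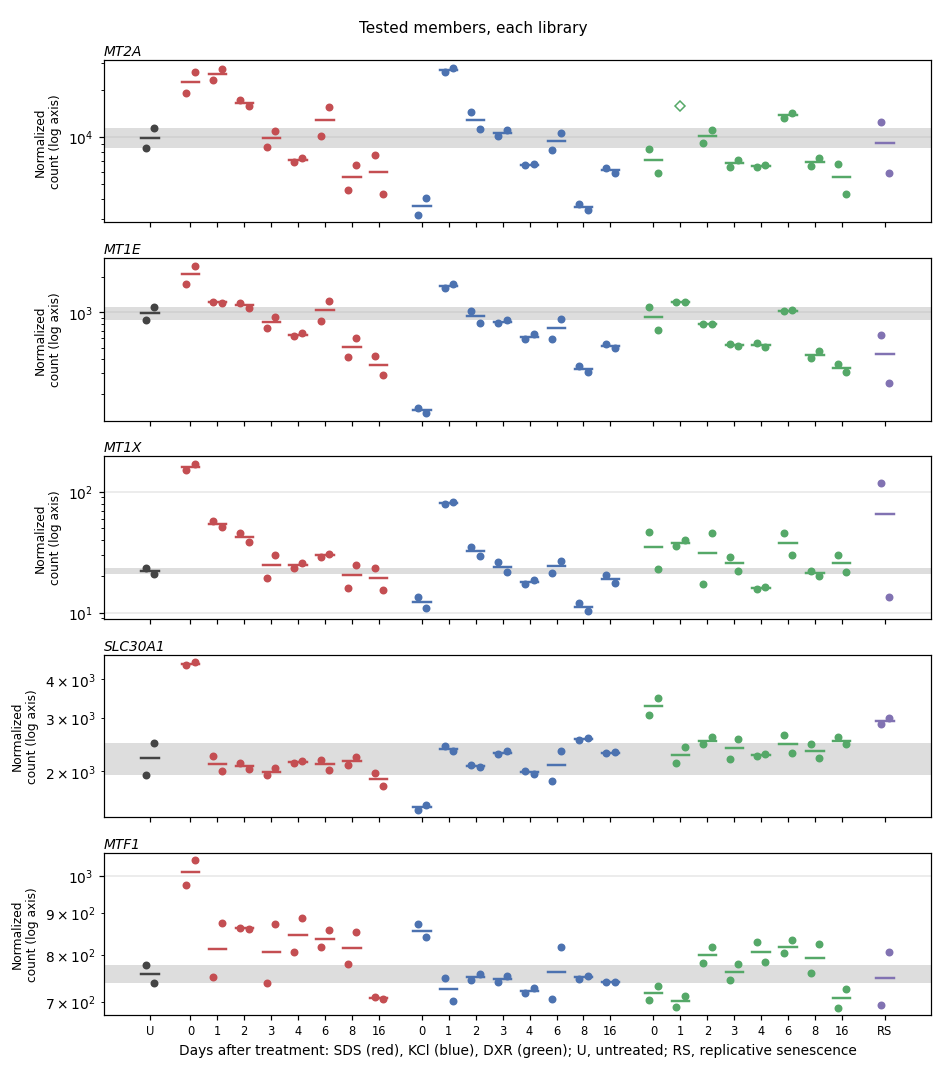
Normalized count (log axis) of the 5 tested genes in each library, by group and day; points are libraries, short lines the mean of 2, the grey band spans the untreated libraries, and the open diamond is the group level of MT2A on day 1 after DXR, whose libraries could not be separated. All 5 genes are above the band at SDS day 0, MT2A and MT1E are below it at KCl day 0 and above it at KCl day 1, and both SLC30A1 libraries are outside it at day 0 of each inducer.

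**Figure D2:**
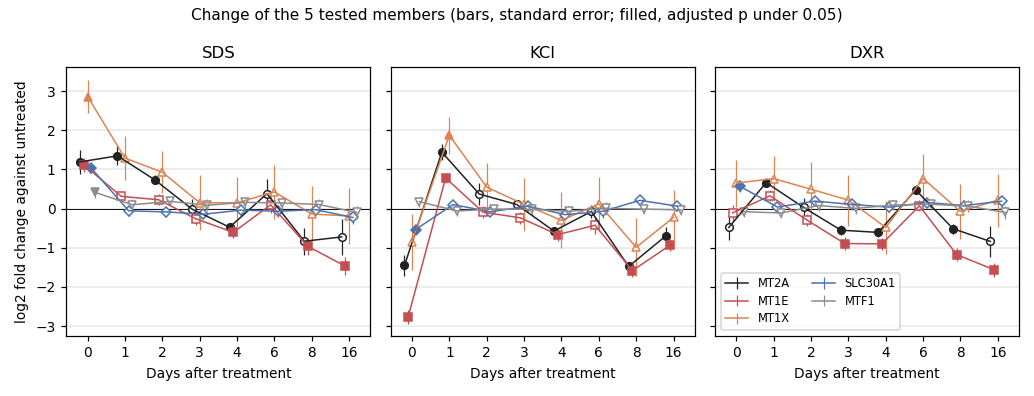
Log2 fold change against untreated cells (vertical axis) by day after treatment with SDS, KCl or DXR; bars are standard errors and filled symbols have an adjusted p under 0.05. MT2A and MT1E are filled above and below zero on several days, while SLC30A1 is filled only at day 0 and MTF1 only at SDS day 0.

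MT2A, which encodes the metallothionein most abundant in these cells, had 8482 and 11356 normalized counts in the untreated libraries. Per kilobase of annotated exon this was a group level of 7636, against 936 for MT1E, 403 for SLC30A1, 94.4 for MTF1 and 12.5 for MT1X on the same scale. MT2A was therefore the highest of the 9 genes per length in untreated cells.

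After SDS, MT2A reached 19088 and 26279 normalized counts on day 0. The values on day 1 were 23177 and 27288, and those on day 2 were 17195 and 15799. Both libraries of these 3 days lay above both untreated ones, and the rise was 2.29-fold on day 0 (log2 1.19, SE 0.31, adjusted p = 0.000502), 2.54-fold on day 1 (log2 1.35, SE 0.24, adjusted p = 7.25e-07) and 1.66-fold on day 2 (log2 0.73, SE 0.12, adjusted p = 1.79e-08). On day 3, with 8670 and 10957, the libraries overlapped the untreated ones. On days 4, 8 and 16 the pairs of values were 6868 and 7393, 4553 and 6581, and 7719 and 4304, all under the lower untreated library. Of these only day 4 was called (log2 -0.48, SE 0.12, adjusted p = 0.000608).

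After KCl, MT2A went the other way first. Its libraries held 3158 and 4090 on day 0, a level 0.365 times that of untreated cells (log2 -1.45, SE 0.28, adjusted p = 7.65e-07). On day 1 they held 26009 and 27905, the highest group level of MT2A, 26957 (2.72-fold, log2 1.44, SE 0.21, adjusted p = 7.91e-10). Between these days the gene rose by 2.89 on the log2 scale (SE 0.35, adjusted p = 3.86e-15, the test of the difference). Day 2 (14430 and 11248) and day 3 (10191 and 11155) were not called. On day 4 the libraries held 6624 and 6707 (log2 -0.57, SE 0.12, adjusted p = 2.67e-05). On day 8 they held 3734 and 3383, again 0.359 times the untreated level (log2 -1.48, SE 0.12, adjusted p = 9.36e-34), and on day 16 they held 6371 and 5905 (log2 -0.69, adjusted p = 0.0152).

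After DXR the MT2A libraries held 8353 and 5847 on day 0, both under the untreated ones, with no call (log2 -0.48, SE 0.33, adjusted p = 0.297). The group level on day 1 was 15712, 1.58 times the untreated one (log2 0.66, SE 0.12, adjusted p = 2.17e-07). Its rise from day 0 to day 1 was 1.15 on the log2 scale (SE 0.35, adjusted p = 0.0311). On days 3, 4 and 8 the gene was called lower, between log2 -0.51 and -0.61.

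Day 6 stood apart from its neighbours in all 3 courses. MT2A held 10132 and 15690 on day 6 after SDS, 8261 and 10594 after KCl and 13308 and 14319 after DXR. On days 4 and 8 each library of the same course was below each of these, so that the levels of day 6 did not overlap those of the days before and after it. Against untreated cells only the DXR value was called (log2 0.48, SE 0.11, adjusted p = 0.000264). MT1E had the same order, with 849 and 1258, 590 and 877, and 1021 and 1046 on day 6, although after KCl its day 6 libraries overlapped the day 4 values of 589 and 654. Day 6 was not compared with days 4 and 8 by a test, and the part of the medium changes, whose interval differs between the labels and the methods, was not tested.

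The size of the MT2A calls rests on the standard error used. The deposited errors of MT2A ran from 0.11 to 0.46 between tables. In limma on the recovered reads, which takes 1 spread per gene from all libraries, the error was 0.27 in each of the 24 groups with reads for MT2A. There 5 of the 13 MT2A calls with a value remained, those of SDS days 0 and 1 and KCl days 0, 1 and 8, and all 5 remained when any library of either group was left out. The other 8, which include every MT2A call of days 2, 3, 4 and 6, had adjusted p from 0.0580 to 0.229 with limma. It called MT2A lower in 3 groups where the deposited test did not, SDS days 8 and 16 and DXR day 16 (adjusted p from 0.0145 to 0.0262). These calls did not hold in every fit without 1 library. There the log2 value ran from -1.10 to -0.59 on SDS day 8, -1.16 to -0.32 on SDS day 16 and -1.14 to -0.48 on DXR day 16.

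MT1E, which encodes another zinc-binding metallothionein of the cluster, had 859 and 1111 normalized counts in untreated libraries. On SDS day 0 it held 1749 and 2520 (2.17-fold, log2 1.12, SE 0.17, adjusted p = 1.62e-09). It was not called on day 1 (1239 and 1202) or on day 2 (1206 and 1094), when MT2A was. It was lower on day 4, at 625 and 667 (log2 -0.61, SE 0.15, adjusted p = 0.000775), and on day 8, at 412 and 600 (log2 -0.97, SE 0.21, adjusted p = 8.42e-05), of which limma did not make the first and lost the second in 2 of 4 fits without 1 library (adjusted p = 0.0935 and 0.124). On day 16 the libraries held 422 and 288, 0.361 times the untreated level (log2 -1.47, SE 0.24, adjusted p = 2.07e-08).

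The lowest MT1E level of all groups was that of KCl day 0, at 153 and 136 normalized counts. This was 0.148 times the untreated level (log2 -2.76, SE 0.17, adjusted p = 3.04e-54). 1 day later the libraries held 1612 and 1772 (log2 0.78, SE 0.13, adjusted p = 1.18e-07), so that the gene rose by 3.54 on the log2 scale within a day (SE 0.22, adjusted p = 2.78e-56). That day 1 call was lost in limma when any 1 library of either group was left out (adjusted p from 0.0515 to 0.277). On day 4 it held 589 and 654 (log2 -0.66, SE 0.16, adjusted p = 0.000456), a call that limma did not make. On day 8 MT1E was again low, at 345 and 311 (log2 -1.58, SE 0.16, adjusted p = 2.09e-21).

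After DXR, MT1E held 1117 and 711 on day 0 and 1235 and 1229 on day 1, neither called. It was lower on days 3, 4, 8 and 16, from log2 -0.89 on day 3 to -1.56 on day 16, where the libraries held 358 and 308. In limma the calls of days 8 and 16 held without any 1 library, and those of days 3 and 4 were lost in 3 of 4 such fits (adjusted p from 0.0567 to 0.164). Over the 25 comparisons MT1E was called higher in 2 and lower in 12, and MT2A higher in 6 and lower in 8. The share of all tested genes called in these comparisons ran from 4.33% to 50.1%. On day 16 MT1E was called lower after each inducer (log2 -1.47 after SDS, -0.94 after KCl and -1.56 after DXR), while the deposited test called MT2A on that day after KCl only and limma after SDS and DXR only. The KCl day 16 call of MT1E was lost in limma in 3 of the 4 fits without 1 library (adjusted p from 0.0677 to 0.157), and those of SDS and DXR day 16 held in all 4.

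MT1X, a further member of the family, was much scarcer, with 19 and 14 reads in the untreated libraries, or 23.4 and 21.0 normalized counts. SDS day 0 brought 161 and 165 reads, or 153 and 171 normalized counts, a rise of 7.27-fold (log2 2.86, SE 0.43, adjusted p = 2.89e-10). KCl day 1 brought 125 and 94 reads, or 80.0 and 83.0 normalized counts, 3.66-fold the untreated level (log2 1.87, SE 0.47, adjusted p = 0.00122). Those were its only 2 calls, and the second was lost in limma when any 1 library was left out (adjusted p from 0.0543 to 0.0823). On SDS day 1 the libraries held 57.2 and 51.4, both above untreated, with no call (log2 1.29, SE 0.56, adjusted p = 0.0909).

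MT1F and MT1G, which encode further zinc- and copper-binding metallothioneins, were close to silent except in a few groups. MT1F had 0 reads in both untreated libraries, 40 and 36 on SDS day 0, and at most 6 in any other library. Against the limit that a count of 0 allows, 3 reads over both untreated libraries, its SDS day 0 level of 37.6 normalized counts was at least 18.6-fold higher. MT1G had 2 and 0 reads in untreated cells, 15 and 10 on SDS day 0 and 28 and 25 on KCl day 1. Per depth the ratio to untreated was 9.16 on SDS day 0 (95% exact interval 2.28 to 79.8, counting error only) and 14.5 on KCl day 1 (3.83 to 123). Elsewhere MT1G had at most 10 reads in a library.

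MT1A and MT1M, from the same cluster, had few reads in any library. MT1A had 1 and 0 reads in untreated cells and at most 14 anywhere, a value of DXR day 0, whose other library had 7. On SDS day 1 it had 12 and 7 reads, a ratio per depth of 11.5 (95% exact interval 1.83 to 477). MT1M had 0 and 2 reads in untreated cells and at most 6, again on DXR day 0, beside 4 in its other library. At this depth MT1M could not be told from its untreated level on SDS day 0 (2 and 5 reads, ratio 2.56, interval 0.488 to 25.3). Of the 52 libraries, 24 had no read of MT1F, 19 none of MT1G, 16 none of MT1A and 33 none of MT1M.

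**Figure D3:**
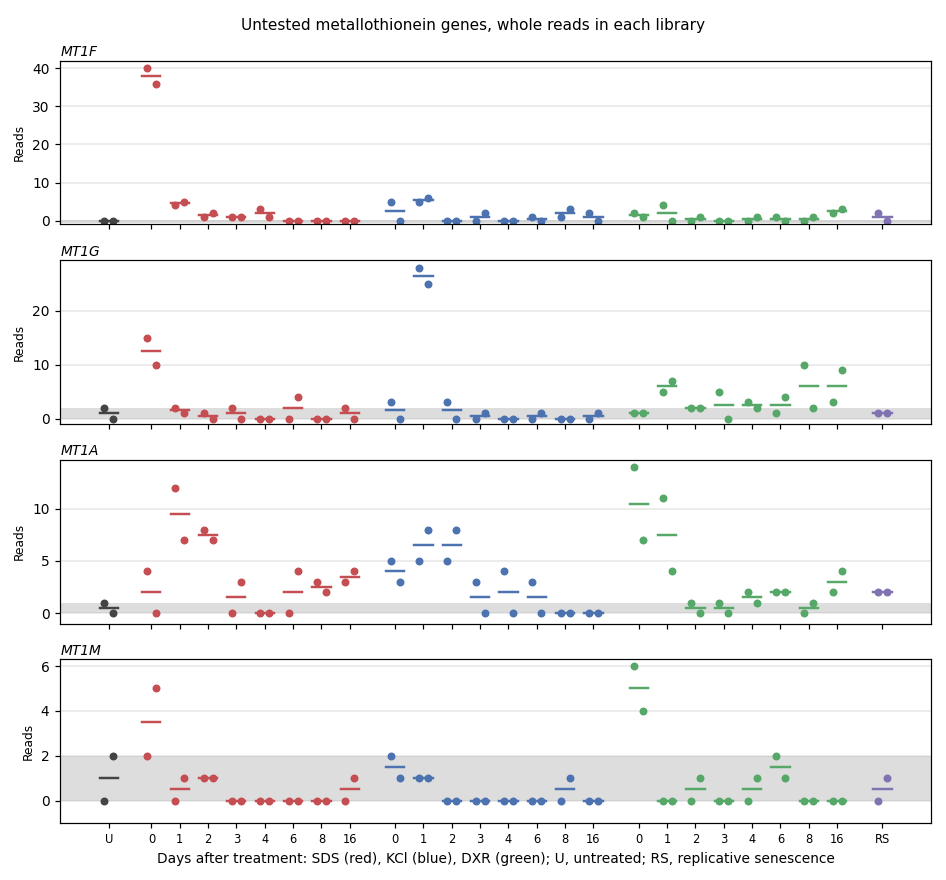
Whole reads (vertical axis, linear, own scale for each gene) of the 4 untested metallothionein genes in each library, by group and day; points are libraries, short lines the mean of 2, and the grey band the untreated range. MT1F stands at 40 and 36 reads at SDS day 0, MT1G at 28 and 25 at KCl day 1, and MT1A and MT1M stay at 14 reads or fewer.

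The metallothionein genes are alike in sequence, and how the authors' counting treated reads that fit several of them is not given in the sources used here. Of all runs of 50 bases in their GENCODE 29 transcripts, 16.5% of those of MT1G, 9.87% of MT1M, 7.10% of MT1E and 5.76% of MT1A also occur in another metallothionein gene or pseudogene. The shares were 3.64% for MT1X, 3.02% for MT2A and 1.22% for MT1F. Reads from such runs may have been counted for either gene or left out, so that small counts of MT1G, MT1M and MT1A are uncertain.

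SLC30A1, the exporter that removes zinc across the plasma membrane, had 1946 and 2473 normalized counts in untreated cells and was called at day 0 only. It held 4454 and 4564 on SDS day 0 (2.04-fold, log2 1.03, SE 0.13, adjusted p = 2.74e-15). On DXR day 0 it held 3064 and 3484 (1.48-fold, log2 0.57, SE 0.14, adjusted p = 0.000329). In that group MT2A, MT1E and MT1X were not called, and the other metallothionein genes were not tested. On KCl day 0 SLC30A1 held 1500 and 1549 (log2 -0.53, SE 0.12, adjusted p = 5.36e-05). Both libraries of each group lay outside the untreated range, and limma kept the 3 calls without any 1 library.

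In the other 21 treated groups SLC30A1 lay between log2 -0.23 and 0.21 of untreated cells, with no call, while limma called it higher on KCl day 8 and DXR day 16. Those limma calls did not hold in every fit without 1 library, where the log2 value ran from 0.07 to 0.42 in both groups. On KCl day 1, when MT2A was at its highest, SLC30A1 held 2414 and 2328 (log2 0.10, SE 0.11, adjusted p = 0.714). The 95% interval of its change from SDS day 0 to day 1 ran from -1.44 to -0.74 on the log2 scale (adjusted p = 1.57e-08), whereas that of MT2A ran from -0.62 to 0.93 (adjusted p = 0.852).

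MTF1, the sensor itself, had 777 and 738 normalized counts in untreated cells. It held 974 and 1045 on SDS day 0 (1.33-fold, log2 0.41, SE 0.15, adjusted p = 0.0135), its only call. In the remaining 24 comparisons the log2 fold change stayed between -0.11 and 0.19. Limma called it in 1 more group, KCl day 0, where both libraries (872 and 841) lay above the untreated ones. That call did not hold in every fit without 1 library, where the log2 value ran from 0.17 to 0.24.

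In RS the 2 libraries disagreed on the metallothionein genes. MT1X had 290 reads in one RS library and 26 in the other, 118 and 13.6 normalized counts. MT1E had 640 and 246, and MT2A 12511 and 5917. The gap between the libraries was 3.12 on the log2 scale for MT1X, larger than that of 99.6% of the 14566 genes compared, 1.38 for MT1E and 1.08 for MT2A, while the median gap of all genes in RS was 0.218. MT1E was called lower in RS (log2 -1.15, SE 0.42, adjusted p = 0.0305), 1 of 5 beside 23.1% of all tested genes.

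In limma the RS value of MT1E was -1.96 without the higher RS library (adjusted p = 2.00e-07) and -0.59 without the lower one (adjusted p = 0.0630). MT1X was at -0.70 without the higher library (adjusted p = 0.165) and at 2.39 without the lower one (adjusted p = 1.51e-05), so that its sign in RS depends on the library. SLC30A1 held 2868 and 2988 in RS, both above untreated, with no call in the deposited test (log2 0.41, SE 0.19, adjusted p = 0.101) and a call in limma (log2 0.44, SE 0.10, adjusted p = 0.000332).

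Between inducers the 5 genes were set apart mainly at day 0, where 10 of 15 comparisons were called, beside 34.8% of those of all tested genes (38.6% for SDS against KCl, 28.6% for SDS against DXR and 37.1% for KCl against DXR). SDS exceeded KCl in MT2A by 2.65 on the log2 scale (SE 0.42, adjusted p = 2.36e-09), in MT1X by 3.71 (SE 0.84, adjusted p = 6.01e-05), in MT1E by 3.88 (SE 0.25, adjusted p = 5.06e-53) and in SLC30A1 by 1.56 (SE 0.18, adjusted p = 1.57e-17). SDS exceeded DXR in the same 4 genes, by 1.68, 2.21, 1.22 and 0.46, the last of them close to the threshold (adjusted p = 0.0471). KCl was below DXR in MT1E, by a difference of -2.65, and in SLC30A1, by -1.10. For MT2A the KCl and DXR values differed by -0.97 (95% interval -1.81 to -0.13, adjusted p = 0.0606).

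From day 1 to day 16 the 21 pairs of inducers gave 105 comparisons of these genes, of which 3 were called, beside 2.98% for all tested genes, a share at the background. All 3 were of MT2A between KCl and DXR, with a difference of 0.78 on day 1, 0.66 on day 3 and -0.97 on day 8. Limma called the day 8 difference, did not call that of day 3 and had no MT2A value for day 1 after DXR. It called 6 of these comparisons, and the rest were of SLC30A1. In that gene SDS differed from DXR on day 2 (23.9% of all tested genes called by limma) and day 16 (5.56%). KCl differed from DXR on day 2 (11.1%), and SDS from KCl on day 8 (20.3%) and day 16 (25%). The test of the difference counts the error of the untreated libraries in both terms, although these libraries cancel, so that it makes too few calls. Of the 105 comparisons, 13 had an unadjusted p under 0.05 by this test. Between day 16 and RS, 0 of 15 comparisons were called by this test (0.685% of all tested genes after SDS, 4.25% after KCl and 0.148% after DXR), 1 had an unadjusted p under 0.05, and limma called 2, both of SLC30A1 (SDS and KCl against RS). The limma shares of all tested genes against RS were 21.4% after SDS, 30.5% after KCl and 3.73% after DXR.

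From day 0 to day 1, 7 of 15 comparisons were called. After SDS these were the falls of MT1E (-0.80) and SLC30A1 (-1.09), beside 29% of all tested genes. After KCl they were the rises of MT2A, MT1E, MT1X (2.72) and SLC30A1 (0.64), beside 36.5%, and after DXR the rise of MT2A, beside 3.54%. Day 16 was below day 0 after SDS for MT2A (-1.92), MT1X (-3.05), MT1E (-2.59) and SLC30A1 (-1.26), 4 of 5 beside 28.3% of all tested genes. After KCl MT1E (1.82) and SLC30A1 (0.60) were higher on day 16 than on day 0, 2 of 5 beside 34.5%. After DXR MT1E was lower (-1.45), 1 of 5 beside 12.6%.

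Over the 26 groups MT2A and MT1E followed each other most closely (Pearson r = 0.90, Spearman rho = 0.94), then MT2A and MT1X (0.84 and 0.81). MT2A and SLC30A1 had r = 0.29 and rho = 0.06, and MT2A and MTF1 0.26 and 0.23. For MT1X and SLC30A1 the values were 0.64 and 0.36, and for MT1E and SLC30A1 0.44 and 0.06. These are descriptions over group levels that share their libraries and scale. Among 10564 genes with a mean of at least 100, those most like MT2A were TWF2 (r = 0.90), SYT14 (0.90), GSTO1 (0.89), ARHGAP24 (0.88) and POPDC3 (0.87). Most like MT1X were SLC26A2 (0.88), WDR53 (0.88) and UPP1 (0.86), most like SLC30A1 ZBTB41 (0.93), SLFN5 (0.91) and MAGEH1 (0.89), and most like MTF1 SLMAP (0.88), AP3D1 (0.84) and SLC25A51 (0.83).

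The other zinc transporters of the cell fall into the SLC30 family, which lowers cytosolic zinc, and the SLC39 family, which raises it, and 14 of the 23 listed were tested. On SDS day 0, 10 of the 14 were higher and 1 lower, with a median log2 fold change of 0.75, while 19.8% of all tested genes were called higher, 20.2% lower, and their median was -0.00. On KCl day 0, 5 were higher and 5 lower (23.6% and 26.5% of all), and on DXR day 0, 3 were higher and 1 lower (12.9% and 14.9%). On days 1 to 16 and in RS between 0 and 7 were called higher and between 0 and 2 lower. The highest counts were 7 of 14 on KCl day 8, where 15.5% of all tested genes were called higher, and 6 of 14 on DXR day 8, where 10.3% were.

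The largest rise in the list on SDS day 0 was that of SLC39A14, which imports zinc and iron. Its group level went from 2325 normalized counts in untreated cells to 12526 on SDS day 0 (5.39-fold, log2 2.43, SE 0.11, adjusted p = 2.92e-115) and 5383 on KCl day 0 (log2 1.21, SE 0.10, adjusted p = 1.38e-33). On DXR day 0 it was called lower (log2 -0.32), and it was lower in 17 of the 25 comparisons. On KCl day 0, when SLC39A14 was called higher, MT2A and MT1E were called lower.

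SLC30A4, a transporter into vesicles, had a group level of 370 in untreated cells, 846 on SDS day 0 (log2 1.19, SE 0.19, adjusted p = 1.30e-09) and 222 on KCl day 0 (log2 -0.74, SE 0.19, adjusted p = 0.000305). It was also higher in RS, at 680 (log2 0.88, SE 0.24, adjusted p = 0.00180). SLC30A5, SLC30A6 and SLC30A7, transporters of the secretory pathway named here after their values were seen, rose by 1.24, 1.13 and 1.32 on the log2 scale on SDS day 0. SLC39A13, a transporter of the same pathway, was called higher in 12 comparisons, by at most 0.51, and lower on KCl day 0 (-0.55).

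SLC39A8, a zinc importer of the plasma membrane, was also chosen after its values were seen. Its group level was 8.08 in untreated cells, 158 on DXR day 16 (log2 4.28, SE 0.55, adjusted p = 2.11e-13) and 156 in RS (log2 4.27, SE 0.61, adjusted p = 1.49e-10). On day 16 after SDS it was 64.4 and after KCl 36.0. It was called higher in 9 comparisons and lower in none.

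**Figure D4:**
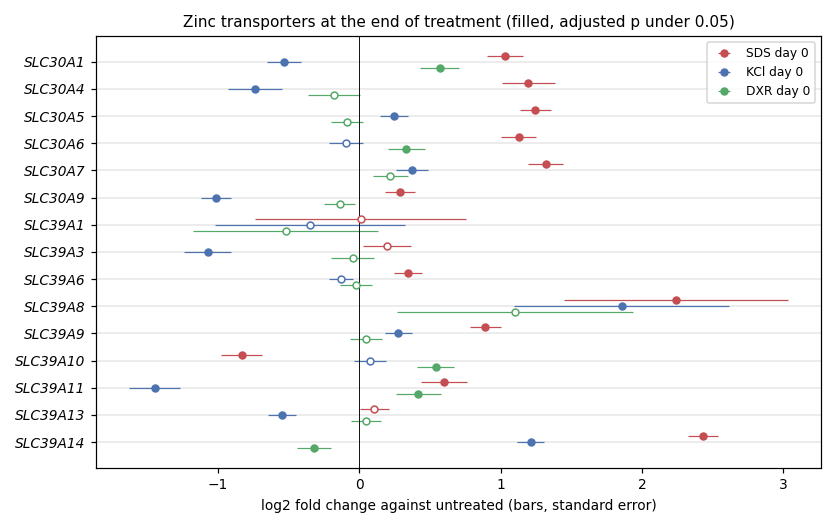
Log2 fold change against untreated cells at the end of treatment (horizontal axis; bars, standard error) of SLC30A1 and the 14 other tested zinc transporter genes; filled points have an adjusted p under 0.05. After SDS 11 of the 15 genes are filled to the right of zero, and SLC39A8 and SLC39A14 are farthest right after KCl, while SLC30A1 lies left of zero after KCl.

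Of 14 other metallothionein genes and pseudogenes only MT1L, a pseudogene of the cluster, was tested. It had a group level of 446 in untreated cells, 201 on KCl day 0 (log2 -1.15) and 1147 on KCl day 1 (log2 1.36, SE 0.37, adjusted p = 0.00292), and was not called on SDS day 0. Of 14 copper and iron genes tested, 7 were higher and 1 lower on SDS day 0, beside 19.8% and 20.2% of all tested genes. FTL, the light chain of ferritin, was higher in 23 of 25 comparisons, by 1.15 on SDS day 0. Reads of FTL may be shared with its pseudogene copies.

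Metallothionein genes also answer to glucocorticoids, and 9 other glucocorticoid-induced genes were tested. On SDS day 0, 3 were higher and 5 lower (19.8% and 20.2% of all tested genes). On KCl day 0, 5 were higher and 1 lower (23.6% and 26.5%), and on KCl day 1, 4 were higher and 0 lower (5.34% and 7.13%). FKBP5, a widely used marker of glucocorticoid action, was lower in 22 of 25 comparisons, with log2 -2.30 on SDS day 0, and higher in none. The rest of that list was mixed. TSC22D3 was called higher in 9 comparisons and lower in 0, and KLF9 higher in 9 and lower in 3. SGK1 was called higher in 4 and lower in 11, and CRISPLD2 higher in 2 and lower in 11. Of 6 tested genes beside the chromosome 16 cluster, 2 were higher and 1 lower on SDS day 0 (19.8% and 20.2% of all tested genes). On KCl day 0, 3 were higher and 2 lower (23.6% and 26.5%). NUDT21, an mRNA processing factor among them, was lower in 19 comparisons, from log2 -0.67 to -0.30, and was not called on SDS day 0. The part of these lists in the metallothionein values was not tested.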

How the data were processed

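WI-38 mRNA sequencing gave 52 files in 26 groups of 2 libraries, grouped by the sample labels. The submitters' processing notes name Trim Galore, HISAT2, HTSeq, featureCounts, DESeq2 and GRCh38; their versions and settings are not given in the sources used here. The authors deposited, for each treated group against untreated cells, a mean normalized count per gene (used as a signal), a log2 fold change, its error, the ratio of both (a score) and p-values. Both files of a treated condition hold the same table, and those of RS and of untreated cells hold 1, which leaves 25 tables. There were 0 unused columns of per-sample values. The authors' adjusted p-values were not used.

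The 5 members with a mean of at least 10 were tested by the authors' p-values, adjusted here by Benjamini-Hochberg within each table over 14898 genes. Levels were put on 1 scale by the 8645 genes whose mean exceeded 200 in all tables. Differences between groups were tested as the difference of log2 fold changes divided by its standard error, the errors being added in squares (two-sided normal test). As each mean is a sum of 4 whole read counts times 4 weights, with the untreated pair common to all tables, the reads of each library were solved. Refitted log2 fold changes lay within 0.001 of the deposited ones for 99.9% of values. Libraries could not be tied to replicate numbers. limma 3.58.1 (R 4.3.3; log2 of reads plus 0.5, divided by size factors) on these reads, with and without each library, was added after seeing the data. The solving of the untreated reads, the difference test and limma against untreated cells were tested on simulated data, and the other steps were not. The simulated fold changes of the difference test were drawn independently, without shared untreated libraries. Python 3.11.15, NumPy 2.4.6 and SciPy 1.17.1 were used.

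The members and the gene lists were chosen with earlier results of these data known. From each list the genes called in most comparisons are named (3 zinc transporters, 1 from each other list), with all members, the 5 genes most like MT2A and 3 each most like MT1X, SLC30A1 and MTF1. Exact binomial intervals are at 95%, and intervals and floors (3 reads) cover counting error only.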

Additional observations from a re-analysis of the deposited data

Results flagged for a closer look

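The effect of an inducer on a member differed from that of another inducer on the same day in 13 tests of the difference. Of the same comparisons over all tested genes, 34.8% were called on day 0 and 2.98% from day 1 to day 16. On day 0, SDS against KCl differed by 2.65 for MT2A, 3.71 for MT1X, 3.88 for MT1E and 1.56 for SLC30A1 on the log2 scale, and SDS against DXR by 1.68 for MT2A, 2.21 for MT1X, 1.22 for MT1E and 0.46 for SLC30A1. KCl against DXR differed on day 0 by -2.65 for MT1E and -1.10 for SLC30A1. For MT2A, KCl against DXR differed by 0.78 on day 1, 0.66 on day 3 and -0.97 on day 8. The search for a single library far from the rest of its group needs at least 4 libraries and was not made in these groups of 2.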

How the results depend on the processing

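Against untreated cells, 13 calls higher and 21 lower became 7 and 8 with a log2 fold change of at least 1, and stayed within 1.5 times of these under the other filters, scalings and Benjamini-Yekutieli adjustment. Limma on the recovered reads called 6.15% to 61.1% of all tested genes in a comparison, against 4.33% to 50.1% in the deposited test. Its calls of the 5 genes were 14 higher and 16 lower, with 23 of 33 deposited calls kept and 7 added. With 1 library left out they were 9 to 14 higher and 9 to 19 lower, with 9 lower when the untreated library with more MT2A was left out, and 16 calls held in every such fit, the lone library being assumed to vary like those of other groups. The 10 calls lost with limma were 8 of MT2A and 2 of MT1E. Between inducers on the same day, 13 of 120 comparisons were called, 26 with the untreated error removed and 21 by limma, but the share of all tested genes rose too, on day 0 from between 28.6% and 38.6% to between 44.1% and 53.9% with that error removed. In limma the day 0 shares were between 58.6% and 66%. Between day 16 and RS the counts were 0, 1 and 2 of 15. No called value changed sign under an alternative. Benjamini-Yekutieli adjustment lost MT2A on KCl day 16, MT1E in RS and MTF1 on SDS day 0, and left 2 zinc transporters higher on KCl day 0 and 1 on DXR day 0. Spearman's measure kept 3 of the 5 genes most like MT2A and 1 of 3 for the other members. No paired analysis was possible because the recovered libraries cannot be tied to the replicate numbers of the labels, so the replicate block was not run. The files hold no counts per library, and edgeR was not run on the recovered reads either. Counts of 0 to 40 reads limit what can be said of MT1F, MT1G, MT1A and MT1M.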
